A study of Mus musculus with 6 samples.

Results

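The genes of cholesterol and fatty acid synthesis were examined in the hippocampus of mice injected with substance P (SP). The set was a given list of 32 gene symbols: 19 enzymes of sterol synthesis, 4 genes that control them, 3 genes of sterol transport and turnover and 6 genes of fatty acid synthesis. All 32 were found by symbol among the 55421 genes of the count table, and all 32 passed the filter on low counts, which left 17069 genes. Hippocampal RNA came from 6 mice, of which 3 received SP and 3 the vehicle, and each mouse gave 1 library. All were wild-type male C57BL/6N mice, 8 to 10 weeks old. SP (10 µM, 100 µL), dissolved in distilled water, was given under the skin on 14 consecutive days, and the vehicle mice received 100 µL of saline in the same way. Only the RNA counts were analysed here.

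Cholesterol in the brain is made locally, because lipoprotein cholesterol of the blood does not cross the blood-brain barrier in bulk. Astrocytes and oligodendrocytes carry out most of this synthesis in the adult brain, and myelin holds much of the product. The pathway runs from acetyl-CoA through mevalonate and squalene to lanosterol, and then through a series of sterol intermediates. SREBP transcription factors, held in the endoplasmic reticulum by SCAP and INSIG when sterols are plentiful, switch on these enzymes and those of fatty acid synthesis when sterols run low. SREBPs bind weakly to the sterol regulatory element (SRE) by themselves and act together with NF-Y, which binds CCAAT boxes.

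Sequences before the start sites were examined because genes of these pathways are known targets of SREBPs and NF-Y. RefSeq windows on GRCm38.p6, from 250 bases before to 50 bases after each start, were found for 26 of the 32 genes and not for *Sqle*, *Fdps*, *Fdft1*, *Stard4*, *Scd1* and *Scd2*. Both strands were searched for the SRE letters TCACNCCAC, the E-box CACGTG, which SREBPs can also bind, CCAAT and the GC box GGGCGG, and no match in the 250 bases before a start overlapped a match of another motif. CCAAT was present in 21 of the 26 genes (80.8%), against 42.5% of the 12395 tested genes that had a window. The E-box was present in 6 of 26 (23.1%), against 11.1%, and the SRE letters in 1 of 26, *Hmgcs1*, against 1.36%. The GC box was present in 22 of 26 (84.6%), against 65.5%. These matches describe the letters in these windows and are not evidence of binding. The 250 bases before the start are shown for 4 genes, 5′ to 3′ along the gene, with CCAAT or its reverse complement ATTGG and the SRE letters in capitals. *Hmgcs1* is shown because it alone held the SRE letters, *Mvk* because its 5 CCAAT boxes were the highest number, and *Fasn* and *Cyp46a1* because they were the 2 genes with an unadjusted p under 0.05.
*Hmgcs1* (chr13:119690101-119690350, plus strand): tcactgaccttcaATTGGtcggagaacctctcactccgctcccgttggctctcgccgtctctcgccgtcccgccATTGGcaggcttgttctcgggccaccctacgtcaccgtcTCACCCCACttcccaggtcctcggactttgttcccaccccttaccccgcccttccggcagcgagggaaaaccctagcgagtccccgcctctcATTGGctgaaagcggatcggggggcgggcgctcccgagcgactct
*Mvk* (chr5:114444019-114444268, plus strand): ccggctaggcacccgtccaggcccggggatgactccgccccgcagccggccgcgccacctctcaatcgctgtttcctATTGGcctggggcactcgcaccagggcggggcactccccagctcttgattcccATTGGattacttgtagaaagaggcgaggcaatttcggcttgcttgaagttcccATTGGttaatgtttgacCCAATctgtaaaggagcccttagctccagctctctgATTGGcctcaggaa
*Fasn* (chr11:120824548-120824797, minus strand): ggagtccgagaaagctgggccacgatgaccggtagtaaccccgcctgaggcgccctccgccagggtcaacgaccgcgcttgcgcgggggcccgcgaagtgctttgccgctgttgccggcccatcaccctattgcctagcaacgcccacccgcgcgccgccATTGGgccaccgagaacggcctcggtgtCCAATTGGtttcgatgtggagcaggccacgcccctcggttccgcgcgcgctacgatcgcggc
*Cyp46a1* (chr12:108334066-108334315, plus strand): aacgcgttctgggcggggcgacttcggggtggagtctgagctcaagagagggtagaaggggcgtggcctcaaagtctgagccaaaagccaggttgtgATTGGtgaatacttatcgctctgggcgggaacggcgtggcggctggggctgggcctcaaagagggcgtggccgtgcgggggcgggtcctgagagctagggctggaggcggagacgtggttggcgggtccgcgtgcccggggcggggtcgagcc
The SRE letters of *Hmgcs1* began 137 bases before the start (offset -137), between its CCAAT boxes. In *Fasn* a pair of the 3 CCAAT boxes overlap each other on opposite strands.

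None of the 32 genes differed between the libraries labelled SP and those labelled vehicle by the thresholds of the study, an FDR < 0.1 with |log2FC| > 0.3, in edgeR's quasi-likelihood test. The same thresholds called 5 of all 17069 tested genes (0.0293%), 3 of them higher in SP (0.0176%) and 2 lower (0.0117%). An unadjusted p under 0.05 was found for 2 of the 32 genes, 1 higher and 1 lower in SP, which is 6.25% against 10.1% of all tested genes (4.48% higher and 5.59% lower). The 3 SP libraries did not overlap the 3 vehicle libraries in 5 of the 32 genes, 2 higher and 3 lower, against 18.2% of all tested genes (9.19% higher and 9.03% lower). The log2 fold change was above 0 in 17 of the 32 genes and below 0 in 15, against 50.5% of all tested genes above 0. The median log2 fold change was 0.0073 over the 32 genes and 0.0015 over all tested genes.

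These differences were bounded closely. The fold changes ran from -0.19 for *Cyp46a1* to 0.14 for *Fasn* on the log2 scale. The 95% interval of the log2 fold change lay between -0.3 and 0.3, a 1.23-fold change either way, for 26 of the 32 genes, and between -0.5 and 0.5 for all 32. Among the 9967 genes with a mean level at least that of the lowest of the 32, 75.9% had an interval within 0.3 and 95.7% within 0.5. The 6 genes whose intervals reached beyond 0.3 were *Mvk*, *Mvd*, *Lbr*, *Nsdhl*, *Stard4* and *Cyp46a1*. The lowest count of any of the 32 in any library was 239. A change of 1.41-fold or more was outside the interval of each gene, while changes beyond 1.23-fold were still inside it for 6 of them. These intervals are not adjusted for the number of genes tested and do not give the smallest change the FDR threshold could call. As an example, *Aspa*, a marker of mature oligodendrocytes, had a log2 fold change of 0.41 with an FDR of 0.313 in edgeR.

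**Figure D1:**
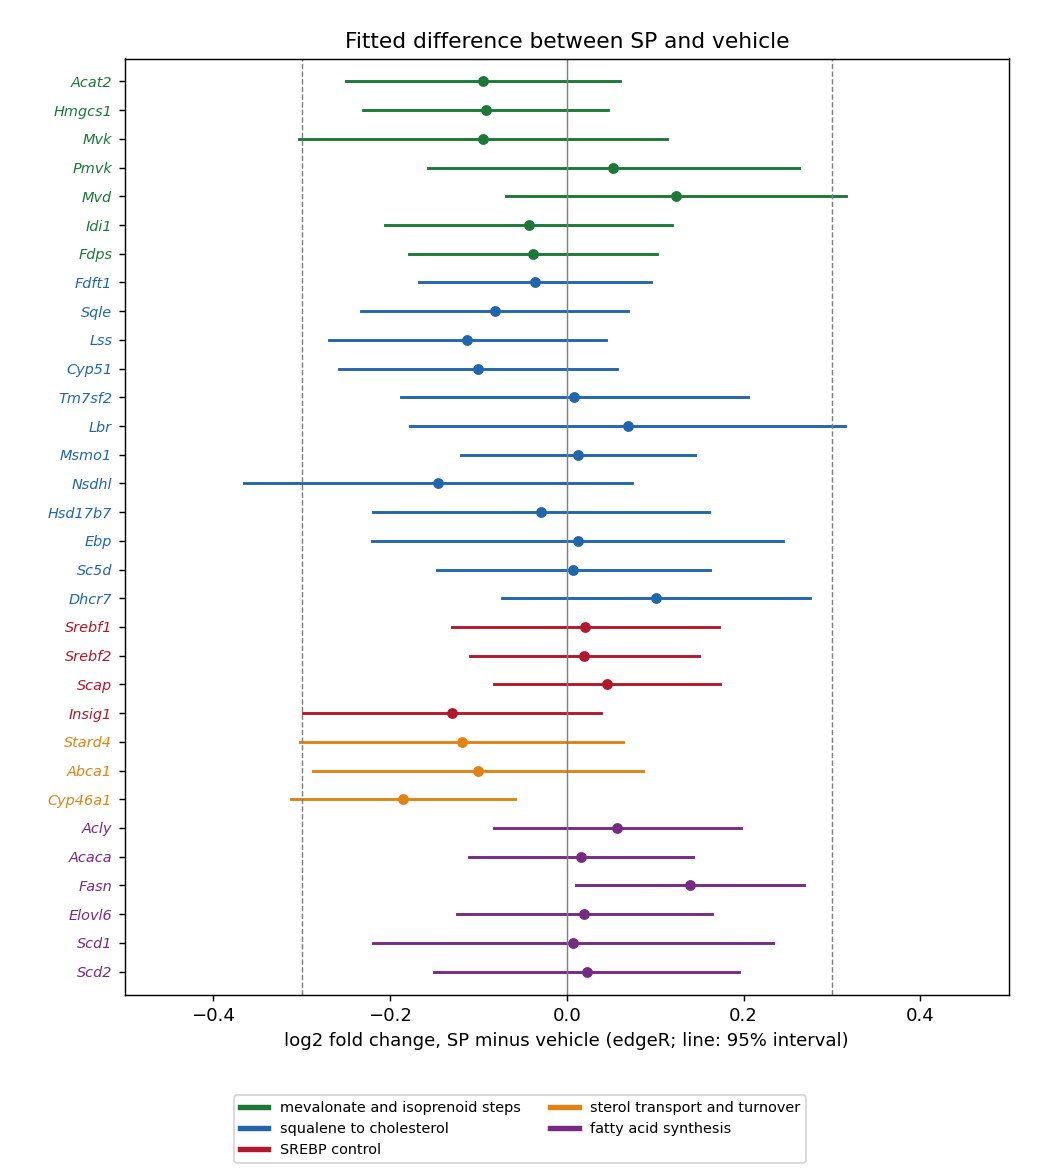
Log2 fold change of each of the 32 genes (SP minus vehicle, points) with its 95% interval (lines) from edgeR with the replicate number as a block, coloured by role. Dashed lines mark -0.3 and 0.3. The points lie between -0.19 and 0.14, and the intervals of *Cyp46a1* and *Fasn* leave out 0.

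Among the 7 genes of the mevalonate and isoprenoid steps, 0 had an unadjusted p under 0.05 in edgeR. *Hmgcs1* (ENSMUSG00000093930), the cytosolic HMG-CoA synthase, had 205, 188 and 196 CPM (counts scaled by library size) in the vehicle libraries and 178, 192 and 183 CPM in the SP libraries. The groups overlapped, with the lowest value in SP 1 and the highest in vehicle 1. Its mean was 196 ± 8.59 CPM against 184 ± 7.06 CPM (SD, n = 3 mice each), a log2 fold change of -0.09 (95% interval -0.23 to 0.05, FDR 0.642 in edgeR).

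*Acat2*, the thiolase that opens the pathway, had 31.8, 31.2 and 30.8 CPM in vehicle and 27.9, 30.2 and 29.7 CPM in SP. Every SP value was below every vehicle value, although the gap between the groups was small (log2 fold change -0.09, FDR 0.671 in edgeR). *Mvd*, the decarboxylase that forms isopentenyl diphosphate, had 12.3, 12.7 and 12.1 CPM in vehicle and 13.6, 13.9 and 13.0 CPM in SP. It did not overlap either, with SP higher (log2 fold change 0.12, 95% interval -0.07 to 0.32, FDR 0.651 in edgeR). The other 4 genes overlapped between groups. *Mvk* and *Pmvk*, the kinases that phosphorylate mevalonate and its product, had log2 fold changes of -0.09 and 0.05. *Idi1*, the isomerase of isopentenyl diphosphate, had -0.04. *Fdps*, the farnesyl diphosphate synthase, varied little between the vehicle mice, at 39.9, 40.2 and 39.8 CPM, and had 37.8, 38.6 and 40.4 CPM in SP.

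Of the 12 genes from squalene to cholesterol, 0 had an unadjusted p under 0.05, 6 had a log2 fold change above 0 and 6 below it, and in each of them the groups overlapped. *Sqle*, squalene epoxidase, the early rate-limiting oxidation of this branch, had 53.0, 53.8 and 55.2 CPM in vehicle and 46.7, 50.1 and 56.6 CPM in SP. SP 1 and SP 2 were below the vehicle libraries and SP 3 above them. *Lss*, which closes squalene epoxide into lanosterol, had 39.2, 40.6 and 41.0 CPM in vehicle and 33.2, 39.7 and 39.1 CPM in SP. Its log2 fold change of -0.11 (FDR 0.610 in edgeR) went with a low value in SP 1, and without replicate 1 it was -0.05.

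The lowest log2 fold change in this branch was that of *Nsdhl*, a sterol dehydrogenase, at -0.15 (95% interval -0.37 to 0.07, FDR 0.642 in edgeR). Its values of 23.1, 18.9 and 20.1 CPM in vehicle and 18.1, 17.2 and 20.8 CPM in SP also overlapped, and the vehicle mice alone spread over a CV of 10.6%. The highest was that of *Dhcr7*, the reductase that yields cholesterol in one of the final branches, at 0.10 (95% interval -0.07 to 0.28, FDR 0.688 in edgeR). *Dhcr7* had 27.5, 26.7 and 28.4 CPM in vehicle and 27.9, 31.8 and 29.1 CPM in SP, with SP 2 highest. *Cyp51*, the lanosterol demethylase, had -0.10, and *Fdft1*, squalene synthase, had -0.04. *Tm7sf2* and *Lbr*, the sterol reductases that act on the product of *Cyp51*, had 0.01 and 0.07. *Msmo1*, *Hsd17b7*, *Ebp* and *Sc5d*, which carry out demethylation, reduction, isomerisation and desaturation of the ring system, had values from -0.03 to 0.01.

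The 19 sterol synthesis enzymes together summed to 829, 802 and 819 CPM in the vehicle libraries and 772, 800 and 804 CPM in the SP libraries. The sums overlapped, since SP 3 lay above vehicle 2, and the means of 817 ± 13.8 CPM in vehicle and 792 ± 17.1 CPM in SP (SD, n = 3 mice each) were close to each other. Within the replicate pairs the log2 ratio of the sums was -0.10, -0.0044 and -0.03. In 2 of the 19 enzymes, *Mvd* and *Dhcr7*, SP was higher in all 3 pairs, and in 2, *Acat2* and *Lss*, it was lower in all 3. Over all tested genes, SP was higher in all 3 pairs for 16.4% and lower for 16.7%.

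**Figure D2:**
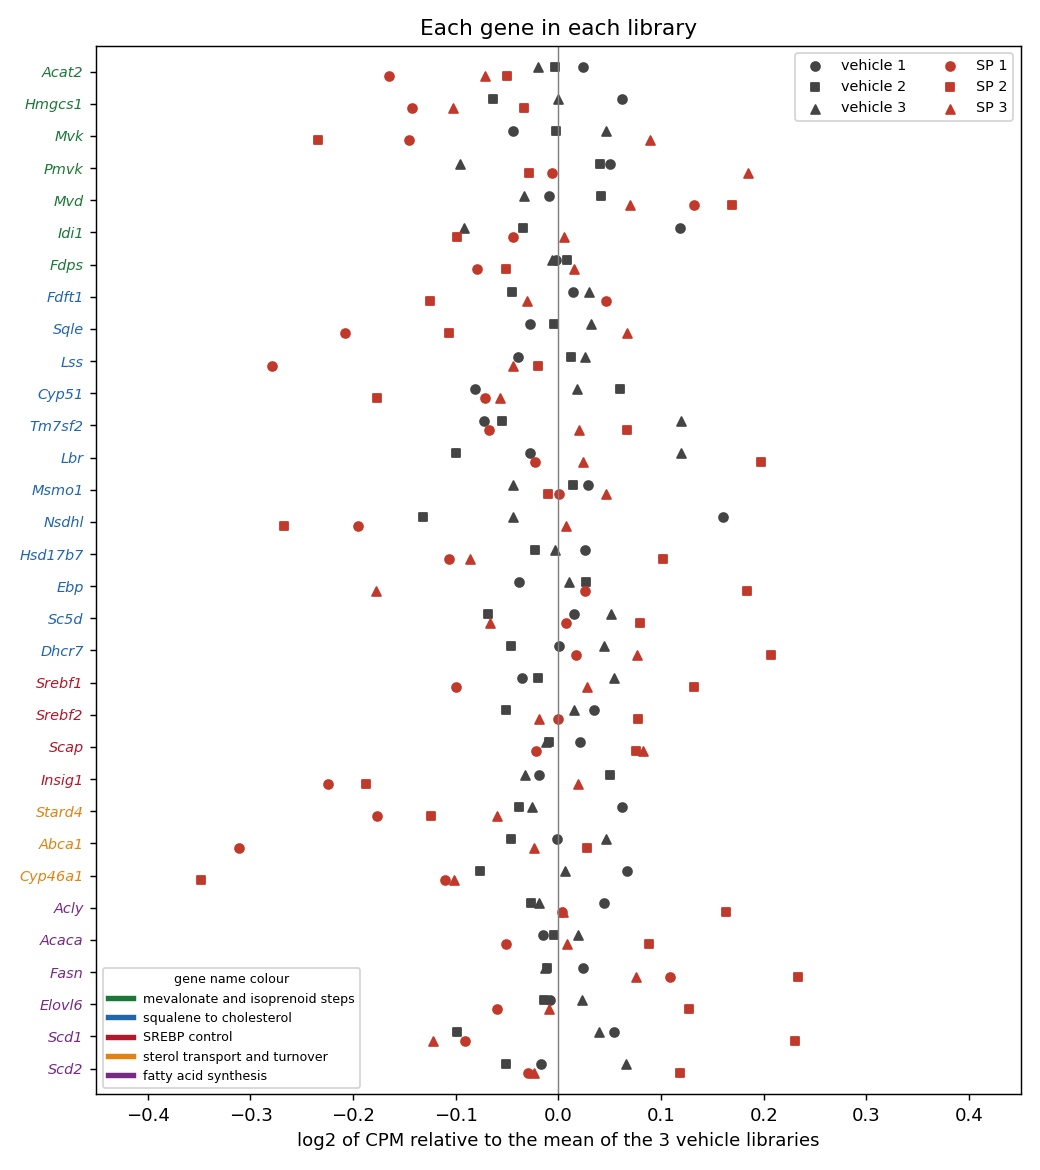
Log2 of CPM in each library relative to the mean of the 3 vehicle libraries, for each of the 32 genes. Grey symbols are vehicle and red symbols SP, with circles, squares and triangles for replicates 1, 2 and 3. For most genes the red and grey symbols overlap, and SP 2 (red squares) lies furthest right in each of the 6 fatty acid synthesis genes.

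The SREBP control genes had 0 of 4 with an unadjusted p under 0.05 in edgeR. *Srebf2* (ENSMUSG00000022463), whose product mainly drives the sterol enzymes, had 192, 181 and 189 CPM in vehicle and 187, 198 and 185 CPM in SP. *Srebf1*, more tied to fatty acid synthesis, had 54.9, 55.5 and 58.4 CPM in vehicle and 52.5, 61.6 and 57.3 CPM in SP. Both overlapped, with SP 2 highest, and both had a log2 fold change of 0.02, with 95% intervals of -0.11 to 0.15 and -0.13 to 0.17. *Scap*, the sterol-sensing escort of the SREBPs, had 0.05. *Insig1* (ENSMUSG00000045294), which retains the complex in the endoplasmic reticulum and is itself a target of SREBPs, had 60.7, 63.7 and 60.1 CPM in vehicle and 52.6, 54.0 and 62.3 CPM in SP. SP 1 and SP 2 were below every vehicle library and SP 3 lay within their range (log2 fold change -0.13, 95% interval -0.30 to 0.04, FDR 0.589 in edgeR). Without replicate 3 the log2 fold change of *Insig1* was -0.22, and without replicates 1 and 2 in turn it was -0.09 and -0.08.

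The 3 genes of sterol transport and turnover had log2 fold changes below 0, and 1 of them had an unadjusted p under 0.05. This gene was *Cyp46a1* (ENSMUSG00000021259, chromosome 12 of GRCm38 from 108334381 to 108362234, plus strand), the neuronal hydroxylase that turns cholesterol into the oxysterol in which it leaves the brain. It had 147, 133 and 141 CPM in the vehicle libraries and 130.1, 110.3 and 131 CPM in the SP libraries. Every SP value was below every vehicle value, and SP 2 was the lowest. The mean was 140.5 ± 6.99 CPM in vehicle and 124 ± 11.6 CPM in SP (SD, n = 3 mice each), a change of -12.1%. The log2 fold change was -0.19 (standard error 0.0542, 95% interval -0.31 to -0.06), with an FDR of 0.394 over all tested genes in edgeR and lower in 3 of 3 replicate pairs. DESeq2 gave it an FDR of 0.679 with the replicate block and 0.296 without it. The fold change was -0.19, -0.14 and -0.23 without replicate 1, 2 and 3.

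*Stard4*, which carries sterols between membranes and is an SREBP target, had 21.0, 19.6 and 19.8 CPM in vehicle and 17.8, 18.5 and 19.3 CPM in SP. The groups did not overlap, and the log2 fold change was -0.12 (95% interval -0.30 to 0.06, FDR 0.649 in edgeR). *Abca1*, the exporter that loads cholesterol onto lipoproteins, had 57.9, 56.2 and 59.9 CPM in vehicle and 46.7, 59.1 and 57.1 CPM in SP. Its log2 fold change of -0.10 rested on SP 1, and without replicate 1 it was 0.0022.

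All 6 fatty acid synthesis genes had a log2 fold change above 0, from 0.01 to 0.14, and 1 had an unadjusted p under 0.05. This gene was *Fasn* (ENSMUSG00000025153, chromosome 11 of GRCm38 from 120805846 to 120824547, minus strand), the synthase that builds palmitate. It had 279.7, 273 and 273 CPM in the vehicle libraries and 297, 323 and 289.9 CPM in the SP libraries. Every SP value was above every vehicle value, and SP 2 was the highest. The mean was 275 ± 3.97 CPM in vehicle and 303 ± 17.7 CPM in SP (SD, n = 3 mice each), a change of 10.1%. The log2 fold change was 0.14 (standard error 0.0549, 95% interval 0.01 to 0.27), with an FDR of 0.462 in edgeR and higher in 3 of 3 pairs. It was 0.17, 0.09 and 0.16 without replicate 1, 2 and 3.

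In the other 5 genes the groups overlapped. *Acly*, which makes cytosolic acetyl-CoA from citrate, had a log2 fold change of 0.06, and *Acaca*, which makes malonyl-CoA, had 0.02. *Elovl6*, the elongase of palmitate, also had 0.02. The desaturase *Scd2* (ENSMUSG00000025203), the main stearoyl-CoA desaturase of the brain, had 1402, 1369 and 1485 CPM in vehicle and 1389.8, 1539.97 and 1396 CPM in SP, with a log2 fold change of 0.02 (95% interval -0.15 to 0.20). *Scd1*, its paralog, had 158, 142 and 156 CPM in vehicle and 143, 178 and 139.7 CPM in SP. SP 2 was above the vehicle libraries and SP 3 below them, so that the mean difference was near 0 (log2 fold change 0.01, 95% interval -0.22 to 0.23, FDR 0.988 in edgeR). Without replicate 2 the log2 fold change of *Scd1* was -0.15, and *Acly*, *Acaca*, *Elovl6* and *Scd2* also turned below 0.

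The SP libraries differed from each other more than the vehicle libraries did. The median CV of the 32 genes was 3.13% among the vehicle mice and 6.21% among the SP mice, against 3.93% and 5.36% for tested genes at or above the lowest level of the 32. SP 2 was the highest of the 6 libraries in 14 of the 32 genes, including all 6 fatty acid synthesis genes, while over all tested genes it was the highest in 24.4%. SP 1 was the lowest in 13 of the 32 genes, 6 of them sterol synthesis enzymes, against 18.9% of all tested genes. The summed CPM of the 6 fatty acid genes was 2138, 2076 and 2209 in vehicle and 2118, 2365 and 2120 in SP, so that SP 1 and SP 3 lay within the vehicle range.

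Markers of other cell types also differed between these libraries. The 14 markers of mature oligodendrocytes, the cells that make myelin, summed to 4598, 4602 and 5141 CPM in vehicle and 5811, 7520 and 5255 CPM in SP. SP 2 was the highest library in all 14, and every SP sum was above every vehicle sum. Of the 14, 11 had an unadjusted p under 0.05 with SP higher, against 4.48% of all tested genes, and 0 passed the FDR threshold in edgeR. At the same thresholds DESeq2 called 1 of the 14 with the replicate block, *Mag*, against 0.211% of all tested genes. Without the block it called 5, *Mag*, *Cldn11*, *Cnp*, *Ugt8a* and *Aspa*, against 0.779%. All were higher in the libraries labelled SP, and this direction rests on the labels as given. The median log2 fold change of these markers was 0.35, or 0.17 without replicate 2, and *Mbp*, a structural component of myelin, had 0.38. The library with the highest myelin marker sum, SP 2, was thus also the one with the highest levels of the 6 fatty acid genes. SP 2 was likewise the highest library in the sums of the astrocyte markers (4315 CPM) and the hippocampal neuron markers (1253 CPM) given below. SP 1 had the next highest myelin marker sum, 5811 CPM, while its fatty acid sum of 2118 CPM lay within the vehicle range. The part of myelin RNA in the levels of the fatty acid genes was not tested. In bulk tissue, more cells of a type and more RNA per cell cannot be told apart.

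The 10 astrocyte markers summed to between 4018 and 4280 CPM in vehicle and between 3933 and 4315 CPM in SP, with a median log2 fold change of -0.01. *Slc1a2* and *Slc1a3*, the glutamate transporters of astrocytes, had -0.01 and -0.05. The 10 choroid plexus markers, which mark the epithelium that makes cerebrospinal fluid, summed to between 3929 and 4918 CPM in vehicle and to 181, 2890 and 4081 CPM in SP, so that SP 1 held few of these transcripts. *Ttr*, a main product of this epithelium, had 125 CPM in SP 1 and *Kl* had 29.2 CPM, against at least 2542 and 127 CPM in the other libraries. The 8 leptomeningeal fibroblast markers, led by *Igf2* and *Dcn*, summed to between 347 and 421 CPM in vehicle and between 218 and 328 CPM in SP. An unadjusted p under 0.05 in edgeR with SP lower was found for 4 of the 10 choroid plexus and 2 of the 8 leptomeningeal markers. The same held for 1 of the 10 astrocyte markers, against 5.59% of all tested genes. DESeq2 called *Igf2* as lower in SP with the block and not without it, and none of the astrocyte or choroid plexus markers in either fit. The part of these tissues in the sterol genes' low values in SP 1 was not tested.

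The 8 hippocampal neuron markers were all present, as the labelled tissue would have them, and summed to between 1043 and 1093 CPM in vehicle and between 1028 and 1253 CPM in SP. *Zbtb20* and *Neurod6* were the most abundant of them, with 284 and 205 CPM in vehicle. The 8 markers of neocortical layer neurons were also present, at 221 to 242 CPM in vehicle and 168 to 215 CPM in SP, led by *Tbr1* and *Fezf2* with 52.7 and 41.0 CPM in vehicle. The groups of libraries did not overlap in this sum either, and SP 2 was the lowest. An unadjusted p under 0.05 was found for 4 of these 8 with SP lower, against 5.59% of all tested genes, and for 3 of the 8 hippocampal markers with SP higher, against 4.48%. DESeq2 called *Cux2* of the neocortical markers as lower in SP with and without the block, and none of the hippocampal markers in either fit. The lowest count of any marker in any library was 25. *Cyp46a1*, a neuronal gene, was also lowest in SP 2, whereas the sum of the hippocampal neuron markers was highest there (1253 CPM). Whether the level of *Cyp46a1* goes with either list of neuron markers was not tested.

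**Figure D3:**
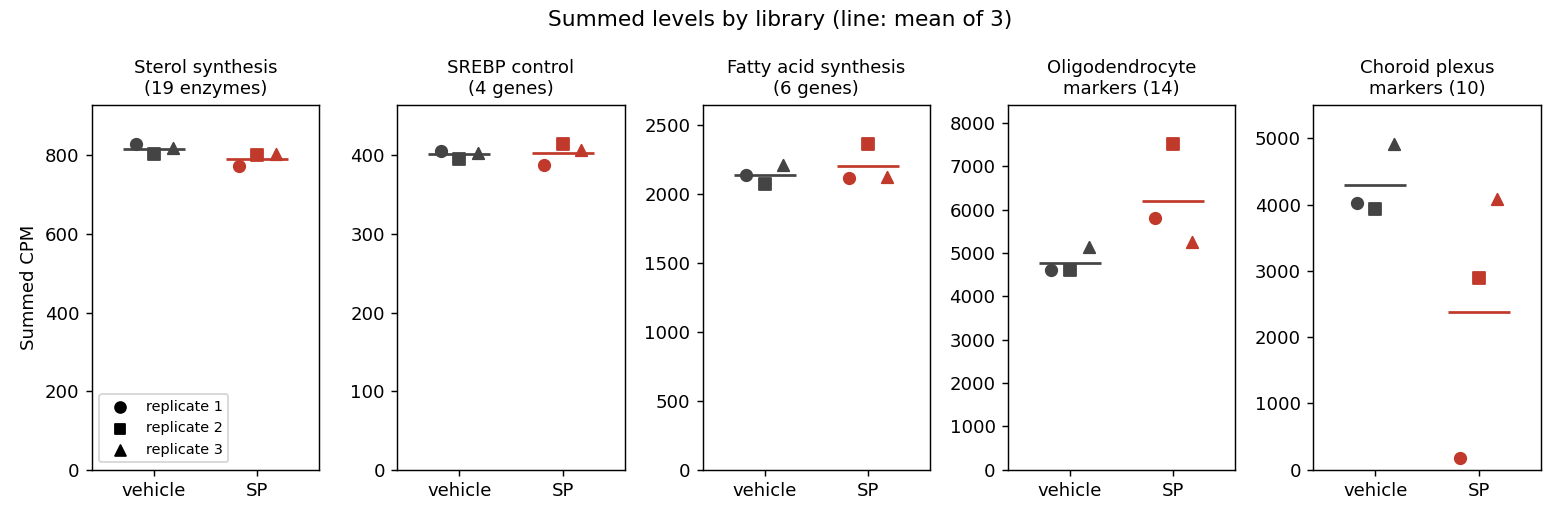
Summed CPM in each library of the 19 sterol synthesis enzymes, the 4 SREBP control genes, the 6 fatty acid synthesis genes, the 14 oligodendrocyte markers and the 10 choroid plexus markers. Symbols are single libraries, lines are means of 3, and each vertical axis starts at 0. The lipid synthesis sums of vehicle and SP overlap, whereas the oligodendrocyte sums do not and the choroid plexus sum of SP 1 is 181 CPM.

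Levels could be compared between genes only per length, as CPM per kb of the exons joined over all transcripts of a gene. *Scd2* was the most abundant of the 32 genes, with 259.7 ± 10.9 CPM per kb in vehicle and 264 ± 15.6 CPM per kb in SP (SD, n = 3 mice each). The next were *Cyp46a1* and *Hmgcs1*, with 42.7 CPM per kb each in vehicle, and *Scd1* with 31.1 CPM per kb. *Acly*, *Srebf2* and *Fasn* followed at 26.6, 26.1 and 25.1 CPM per kb. The sterol enzymes other than *Hmgcs1* ran down from *Fdft1*, with 15.3 CPM per kb in vehicle. *Lbr*, which is also a receptor for lamin B in the nuclear envelope, was lowest with 2.36 ± 0.185 CPM per kb in vehicle and 2.48 ± 0.203 CPM per kb in SP. The vehicle level of *Scd2* was 109.8-fold that of *Lbr*. Of the 31 pairs of neighbours in this order, 14 differed by less than the larger of their SDs in vehicle, *Cyp46a1* and *Hmgcs1* among them, and 17 differed by more. These SDs hold only the spread between mice. They leave out any error of the exon length, which joins all annotated transcripts whether or not they are expressed.

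**Figure D4:**
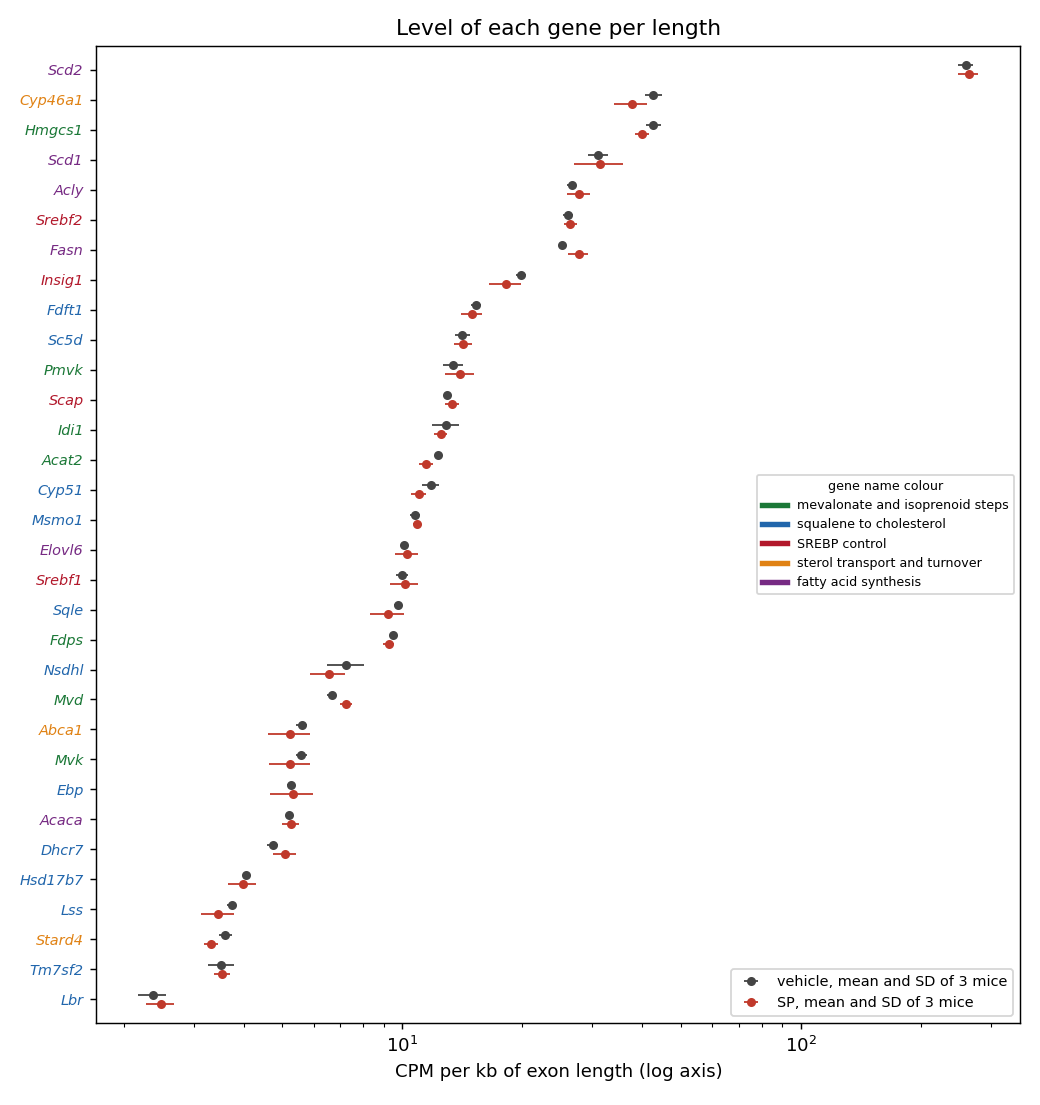
Level of each of the 32 genes per length, in CPM per kb of exon length on a log axis, as mean and SD of 3 mice in vehicle (grey) and SP (red). *Scd2* stands at 259.7 CPM per kb in vehicle and 264 in SP, and the 2 groups lie close together for every gene.

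Some of these genes share sequence with others, which matters because Salmon divides shared reads. Of the 31-base words in the transcripts of *Acat2*, 43.7% also occur in *Acat3*. The share was 33.4% for *Acaca*, mostly in the predicted gene *Gm5182*, 27.9% for *Fdps*, 18.8% for *Idi1*, 14.3% for *Fdft1*, 12.9% for *Tm7sf2* and 6.41% for *Elovl6*. Outside these genes and the desaturases the share was under 5%. *Scd1* and *Scd2* shared 8.14% and 6.81% of their words with other genes, mainly with *Scd3*. *Cyp46a1* and *Fasn* shared 0% in this search. It compared GENCODE M21 transcripts in the sense direction only, and the annotation behind the counts is not given. The values of *Acat2*, *Acaca*, *Fdps* and *Idi1* are the most uncertain in this respect.

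Further genes of the same pathways were taken from a pair of lists of 22 sterol genes and 23 fatty acid genes. Of these 45 genes, 44 were tested and 0 passed the thresholds, while 4 had an unadjusted p under 0.05 with SP higher and 2 with SP lower. This is 13.6% of the 44 genes against 10.1% of all tested genes, and their median log2 fold change was -0.01. *Ch25h*, the gene that was not tested, had a mean of 0.249 CPM in vehicle and 0.218 CPM in SP.

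Among the sterol genes, *Aacs*, which activates acetoacetate for lipid synthesis, had 42.0, 41.8 and 41.5 CPM in vehicle and 46.7, 46.8 and 51.6 CPM in SP. Its groups did not overlap, and its log2 fold change was 0.21 (95% interval 0.06 to 0.36, FDR 0.404 in edgeR). *Nr1h3*, a sterol-activated nuclear receptor, had a low level of 2.48 ± 0.188 CPM in vehicle and 3.35 ± 0.448 CPM in SP (SD, n = 3 mice each), with 0.43 (FDR 0.480 in edgeR). *Erlin2*, a membrane protein that takes part in sterol-dependent degradation in the endoplasmic reticulum, had -0.20 (FDR 0.440) with overlapping groups.

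Among the fatty acid genes, *Thrsp*, a lipogenic regulator that responds to thyroid hormone, had 19.3, 20.7 and 16.4 CPM in vehicle and 22.0, 24.4 and 21.3 CPM in SP. The groups did not overlap, and the log2 fold change was 0.27 (95% interval 0.09 to 0.45, FDR 0.384 in edgeR). *Fa2h*, which hydroxylates the fatty acids of myelin lipids, had 33.7, 30.6 and 34.4 CPM in vehicle and 39.3, 49.6 and 34.5 CPM in SP, a log2 fold change of 0.31 (FDR 0.462). SP 2 was again the highest, as in the oligodendrocyte markers. *Fads3*, of the fatty acid desaturase family, had -0.19 (FDR 0.411) with overlapping groups.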

How the data were processed

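Hippocampal RNA of 6 mice was measured with 1 mRNA library per mouse. The authors used TrimGalore for trimming, STAR for alignment to GRCm38 and Salmon for quantification, and deposited estimated counts per gene with no scaling to depth or length. The annotation release and tool versions are not given in the sources used here. Library totals ran from 22349964 to 27605935 counts, and 9.77% of the values were not whole and were rounded. At this depth a count of 0 allows 0.109 to 0.135 CPM (3 counts of the total, counting error only).

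SP and vehicle were compared with edgeR 4.0.16 under R 4.3.3 (filterByExpr with minimum counts of 10 and, in total, 15, TMM normalization with factors from 0.993 to 1.01, glmQLFit, glmQLFTest), and the model held a block for replicate number. FDR is the Benjamini-Hochberg adjusted p over the 17069 genes tested, with calls at FDR < 0.1 and |log2FC| > 0.3, thresholds that the study used with DESeq2 and an adjustment for replicates. The labels give each replicate number as a batch, which is where the pairing comes from. Deviations from the group means correlated across genes, within the pairs, with r of 0.0118, -0.0798 and 0.0385. For a single gene, the smallest two-sided p of an exact permutation test between 3 and 3 mice, with the pairing ignored, is 0.1. CPM refers to TMM-normalized library sizes, and log2 ratios within pairs used an offset of 0.5 CPM for single genes. The 95% intervals use the t distribution and a standard error derived from the F statistic. Alternatives used DESeq2 1.42.0 and limma-voom (limma 3.58.1).

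The table names the vehicle columns as controls, and they were matched to the mice by treatment and number. Every direction given between SP and vehicle rests on these labels, which were not checked in another way. Exon lengths, positions and transcripts came from GENCODE M21 on GRCm38, and promoter sequences from RefSeq on GRCm38.p6. The 32 genes, the further lists and the markers were chosen with earlier results of these data known. The text names all 32 genes, up to 3 genes in each direction with the lowest unadjusted p under 0.05 from each further list, and up to 2 markers of each list with the highest mean level. Markers called by DESeq2 are named in addition and were chosen after their values were seen. Some markers that these rules would name are not reported here.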

Additional observations from a re-analysis of the deposited data

How the results depend on the processing

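None of the 32 genes passed the thresholds in any of the 12 fits, which are edgeR as reported and 11 alternatives, and none of the further pathway genes did. The lowest FDR of any of the 32 was 0.178, for *Cyp46a1* with no filter on low counts. The number with an unadjusted p under 0.05 was 1 with DESeq2 and the replicate block, 0 to 4 when replicates were left out in turn, and 2 in each other alternative. Without replicate 2 there were 4, all lower in SP, and without replicate 3 there were 2, also lower in SP. *Fasn* had no such p with DESeq2 and the block or without replicate 1, 2 or 3, and *Cyp46a1* had none without replicate 1. The median log2 fold change of the 32 genes ranged from -0.046 to 0.016, a span set by the replicates left out. The number of called genes over the whole table was 5 as reported, 2 with no replicate block, 384 with no filter on low counts, 0 with edgeR and at least 10 counts in every library (10.6% of those genes had an unadjusted p under 0.05), 36 with DESeq2 and the block, 133 with DESeq2 and no block, 2 with limma-voom, and 9 to 36 without replicate 1, 2 or 3. The cause of these differences was not tested. Leaving out the replicate block changed no call of the 32 genes.

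The direction of 16 of the 32 genes turned in at least 1 of the fits that left out a replicate, and in 0 of the other alternatives. Their log2 fold changes without a replicate ranged from -0.19 to 0.0022 for *Abca1*, -0.023 to 0.041 for *Acaca*, -0.0094 to 0.11 for *Acly*, -0.062 to 0.11 for *Ebp*, -0.041 to 0.055 for *Elovl6*, -0.11 to 0.021 for *Hsd17b7*, -0.12 to 0.017 for *Idi1* and -0.046 to 0.15 for *Lbr*. They ranged from -0.029 to 0.033 for *Msmo1*, -0.066 to 0.11 for *Pmvk*, -0.063 to 0.067 for *Sc5d*, -0.15 to 0.089 for *Scd1*, -0.051 to 0.075 for *Scd2*, -0.045 to 0.062 for *Srebf1*, -0.035 to 0.047 for *Srebf2* and -0.048 to 0.061 for *Tm7sf2*. The share of all tested genes whose direction turned in this way was not computed. The median absolute log2 fold change of the 32 genes was 0.055, below their median standard error of 0.067. With 3 mice a group and a median standard error of 0.0906 over all tested genes, small changes could not be detected.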
